A study of Homo sapiens with 6 samples.

Results

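Histone acetyltransferases transfer an acetyl group from acetyl-CoA to lysines of the histone tails, and 10 genes that encode them were followed here: EP300, CREBBP, KAT2A, KAT2B, KAT5, KAT6A, KAT6B, KAT7, KAT8 and HAT1. They were chosen by name, out of 20033 protein-coding genes of the GENCODE annotation of hg38. Each was described by the ChIP-seq peaks that touched its gene body or the 5 kb on either side, called its window below. The windows of the 10 genes held 54 of 70326 peaks of acetylated lysine (Kac) in control cells, 56 of 63282 Kac peaks in cells given sodium benzoate (SB), and 11 of 24308 peaks of benzoylated lysine (Kbz) in cells given SB.

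Acetylation of the tails loosens their hold on DNA and makes binding sites for bromodomain proteins, and at active genes it lies mostly around the transcription start site (TSS). The enzymes fall into families that differ in partners and in preferred lysines: EP300 and CREBBP, the GCN5-related pair KAT2A and KAT2B, the MYST family, and HAT1, which acts on newly made histones. Some of them, EP300 among them, can also use other acyl-CoA molecules as donors. The peaks describe the chromatin at the genes of these enzymes, and neither their expression nor their activity was measured by them.

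The series compared cells cultured without SB with cells given 10 mM SB for 24 h. Input, Kac and Kbz libraries were made from each, 1 library per group and 6 in all, from chromatin cut with micrococcal nuclease. Pan antibodies were used, so neither the histone nor the lysine behind a peak is known. Control Kac, SB Kac and SB Kbz peaks were analysed. The labels give no called peaks for control Kbz, and the input libraries were not analysed here. With 1 library per group no difference below could be set against an error between replicates and no test was made. Each gene therefore has 1 value per list. The sequencing depth behind each list is unknown, and intervals given are Wilson 95% intervals that cover counting error only. They take peaks as independent, although many peaks of the windows come from 1 gene, KAT6B, so they are not tests.

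The cells are labelled HepG2, a line from a human liver tumour. Peaks were looked up at genes that define liver cells, and 7 of those looked up are given here: ALB, APOA1, APOB, TTR, SERPINA1, HNF4A and AFP. Of these 7, 0 had the TSS under a peak in any of the lists (over protein-coding genes control Kac covered 59.1% of starts, SB Kac 60.4% and Kbz 45.8%). APOA1, an apolipoprotein gene, had all 3 lists within 3 kb of its TSS, with control Kac 880 bp, SB Kac 1327 bp and Kbz 1556 bp away. The nearest control Kac peak was 3.29 kb from the TSS of TTR, 5.38 kb from that of HNF4A, 6.35 kb from that of AFP, 38.3 kb from that of ALB, 65.2 kb from that of SERPINA1 and 221 kb from that of APOB. Control Kac lay somewhere in the window of 4 of the 7 genes (82.6% of protein-coding genes), SB Kac in that of 5 (81.4%) and Kbz in that of 2 (72.3%). These 7 genes are not the whole of the genes looked up and do not settle the label, and the values below are given for the cells as labelled.

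Every one of the 10 acetyltransferase genes carried Kac in its window in control and in SB-treated cells, and 8 of 10 carried Kbz. Over all protein-coding genes, 82.6% had control Kac in the window, 81.4% had SB Kac there and 72.3% had Kbz. The 2 genes without Kbz were KAT2B and KAT8. Median gene length was 74.4 kb for the acetyltransferase genes against 27.5 kb for protein-coding genes, and 7 of the 10 were longer than that median. A long window meets a peak more often, so the counts over the TSS below are the closer comparison. KAT6B alone held 48.1% of the control Kac peaks and 44.6% of the SB Kac peaks. The other 9 genes held 28 peaks in the control Kac list, 31 in the SB Kac list and 9 in the Kbz list.

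The TSS of the canonical transcript lay under a control Kac peak in 8 of the 10 genes (59.1% of protein-coding genes), under an SB Kac peak in 9 (60.4%) and under a Kbz peak in 5 (45.8%). EP300, KAT2A, KAT5, KAT7 and HAT1 had all 3 lists over the TSS. Within 3 kb of the TSS the counts were 10, 10 and 8 genes, against 72.8%, 71.9% and 60.3% of protein-coding genes. CREBBP, KAT6A and KAT6B made up the difference for Kbz, with a peak beside the TSS and not over it. Of protein-coding genes with Kbz within 3 kb, 24.1% had it beside the TSS only. Kbz lay that near in 8 of the 10 genes with SB Kac that near (83.6% of protein-coding genes). With any annotated TSS of the gene counted, 9 genes had a start under control Kac (66.5% of protein-coding genes), 10 under SB Kac (66.8%) and 6 under Kbz (52.9%). All 8 genes with control Kac over the canonical TSS had SB Kac over it as well (94.3%).

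**Figure D1:**
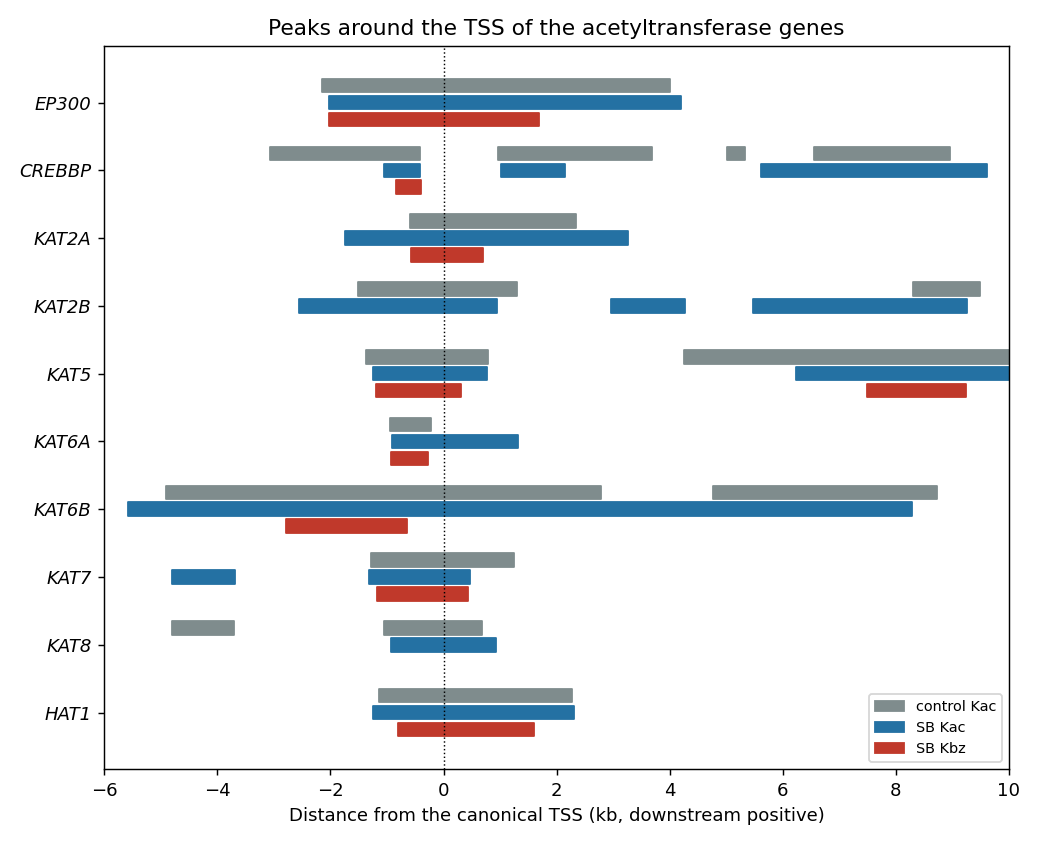
Peaks of control Kac (grey), SB Kac (blue) and SB Kbz (red) around the canonical TSS of the 10 acetyltransferase genes, with distance in kb on the horizontal axis (downstream positive) and the TSS as a dotted line. Kbz peaks lay over the TSS in EP300, KAT2A, KAT5, KAT7 and HAT1, upstream of it in CREBBP, KAT6A and KAT6B, and were absent from KAT2B and KAT8.

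Promoter sequences are shown for genes whose starts differed in the marks. They are the 250 bases before the start as RefSeq gives them (GRCh38.p14), with GC boxes (GGGCGG, or CCGCCC on the other strand) in capitals. EP300 (chr22:41092342-41092591, plus strand), KAT2A (chr17:42121368-42121617, minus strand) and KAT7 (chr17:49788431-49788680, plus strand) lay under peaks of all 3 lists. KAT2B (chr3:20040196-20040445, plus strand) lay under Kac and not Kbz, and CREBBP (chr16:3880714-3880963, minus strand) under no peak.
EP300: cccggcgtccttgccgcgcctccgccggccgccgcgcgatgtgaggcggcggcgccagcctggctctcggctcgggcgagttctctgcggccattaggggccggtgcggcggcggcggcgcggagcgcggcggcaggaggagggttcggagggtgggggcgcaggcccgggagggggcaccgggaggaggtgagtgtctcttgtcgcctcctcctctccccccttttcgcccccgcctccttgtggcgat
KAT2A: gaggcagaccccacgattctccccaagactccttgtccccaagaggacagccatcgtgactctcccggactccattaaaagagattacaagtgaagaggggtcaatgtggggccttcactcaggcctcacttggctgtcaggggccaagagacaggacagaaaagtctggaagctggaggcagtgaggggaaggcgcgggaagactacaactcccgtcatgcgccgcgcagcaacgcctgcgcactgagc
KAT7: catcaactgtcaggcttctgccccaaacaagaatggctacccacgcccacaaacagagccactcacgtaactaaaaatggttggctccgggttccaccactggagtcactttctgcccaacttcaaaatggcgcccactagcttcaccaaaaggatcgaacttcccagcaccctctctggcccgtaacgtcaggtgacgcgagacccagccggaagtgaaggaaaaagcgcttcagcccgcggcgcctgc
KAT2B: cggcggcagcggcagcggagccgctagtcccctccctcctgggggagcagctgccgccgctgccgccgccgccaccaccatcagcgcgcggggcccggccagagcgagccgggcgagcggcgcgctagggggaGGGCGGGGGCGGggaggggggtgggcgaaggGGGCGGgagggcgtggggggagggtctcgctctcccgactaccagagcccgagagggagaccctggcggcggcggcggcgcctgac
CREBBP: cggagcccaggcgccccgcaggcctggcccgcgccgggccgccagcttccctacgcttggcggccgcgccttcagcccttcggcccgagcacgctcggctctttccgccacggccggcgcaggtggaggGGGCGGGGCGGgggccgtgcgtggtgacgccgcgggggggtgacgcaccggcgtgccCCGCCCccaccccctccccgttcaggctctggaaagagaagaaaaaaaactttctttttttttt

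The stretches of EP300 and KAT2B were both rich in G and C (76.8% and 80.8%), the former without and the latter with 3 GC boxes, and only EP300 had Kbz there. KAT2A and KAT7 had 11 and 14 CpG in these bases, against 35 in EP300 and 33 in KAT2B, and both were covered by every list. In the 300-base windows of RefSeq, which add 50 bases after the start, 8 of the 10 genes were matched at their canonical TSS. Their G and C content ran from 57.7% in KAT7 to 80.3% in KAT2B, against a median of 58.7% over 35116 promoters, and their CpG count from 15 in KAT6B to 40 in EP300 and KAT2B, against a median of 14. Motifs were searched on both strands. A GC box stood in 5 of the 8 windows (45.0% of promoters), namely those of CREBBP, KAT2B, KAT5, KAT6B and HAT1. Of these genes, KAT5 and HAT1 had Kbz over the TSS, CREBBP and KAT6B had it beside the TSS, and KAT2B had none. Whether motifs or G and C content bear on Kbz was not tested. The ETS core CCGGAAG was found in KAT5, KAT7 and HAT1 (10.3% of promoters) and the YY1 motif AAGATGGCG in CREBBP and KAT5 (1.75%). CCAAT was present in KAT6B and HAT1 (34.6%) and the NRF1 motif in KAT7 (5.78%). The element TGACGTCA was in 0 of the 8 (1.85%), and its shorter part TGACG, which lies inside the longer one, in 5 (24.6%). TATAAA was found in 0 of the 8 windows, against 11.5% of promoters.

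For the peaks at the TSS, the deposited fold over background is given with its percentile among all peaks of the same list, because folds of different libraries do not share a scale. Percentile 50 is thus the middle peak of that list. Lengths are those of the called peak. A difference between percentiles is a difference in rank, and it was not tested.

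EP300 and CREBBP encode large paralogous coactivators with a bromodomain, which are recruited by transcription factors and acetylate histone H3 at promoters and enhancers. EP300 (chr22:41092592-41180077, plus strand) carried one broad peak over its TSS in each list. The control Kac peak reached from 2152 bp upstream to 4013 bp downstream (fold 4.30, percentile 84.5). The SB Kac peak reached from 2024 bp upstream to 4199 bp downstream (fold 4.20, percentile 80.6). The Kbz peak began at nearly the same place, 2025 bp upstream, but ended 1695 bp downstream, within the Kac peak (fold 3.89, percentile 48.8). It was the longest Kbz peak of the 10 genes, 3721 bp, and the one with the lowest rank among those at their starts. The Kac lists were closest to each other at this gene, sharing 87.1% of the bases that either covered. Outside the TSS, control Kac alone had a 280 bp peak in intron 1 and a 298 bp peak downstream of the gene, at percentiles 26.9 and 48.1. The latter covered the start of an unnamed lncRNA gene on the opposite strand, and the start of the microRNA gene MIR1281, at −79 bp from that of EP300, lay under the TSS peak of every list.

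CREBBP (chr16:3725054-3880713, minus strand) differed from its paralogue in that no list covered its TSS. The control Kac peak lay from 3069 to 415 bp upstream (fold 4.57, percentile 88.7). The SB Kac peak there was 640 bp long and ended 421 bp upstream (fold 4.49, percentile 84.3). The Kbz peak was 448 bp long and ended 400 bp upstream (fold 5.75, percentile 86.2). The next peaks began 955 bp downstream in control Kac and 1015 bp downstream in SB Kac, so that 1354 bp around the TSS were under no peak of any list. This stretch was 78.3% G and C and held 204 CpG. Whether this composition bears on the gap was not tested. Of protein-coding genes with peaks of all 3 lists within 3 kb of the TSS, 6.18% had none of them over it. CREBBP alone showed this pattern among the acetyltransferase genes followed here, but it was not particular to CREBBP. NCOA1, another acetyltransferase gene looked up below, had it with gaps of 346 bp (control Kac), 390 bp (SB Kac) and 503 bp (Kbz). The partner gene TADA2B had it too, with gaps of 309, 293 and 365 bp in the same order. The 300 bases in the middle of the upstream Kbz peak are shown (hg38, chr16:3881187-3881486, minus strand). At this peak Kbz overlapped Kac of both lists. GC boxes are again in capitals.
CREBBP Kbz peak: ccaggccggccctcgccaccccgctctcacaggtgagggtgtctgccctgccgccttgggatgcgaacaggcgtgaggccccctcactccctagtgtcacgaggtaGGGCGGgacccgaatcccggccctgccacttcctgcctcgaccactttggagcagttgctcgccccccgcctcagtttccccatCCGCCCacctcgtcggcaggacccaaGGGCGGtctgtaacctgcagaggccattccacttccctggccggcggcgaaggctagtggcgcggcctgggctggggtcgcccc

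This stretch held 3 GC boxes and 23 CpG, and 70.0% of its bases were G or C. Within the gene, Kac formed a row of weaker peaks in introns 1 and 2. In control Kac the highest-ranked of them lay 49.7 to 51.3 kb downstream of the TSS (1603 bp, percentile 58.8), and SB Kac had its counterpart there (1757 bp, percentile 69.2). Another place of both lists lay farther into intron 2, where the control peak was 2270 bp long and the SB peak 444 bp. Intron 1 held the only Kbz peak of the 10 genes without a control Kac peak under it. It was 566 bp long, stood at percentile 2.74 with a −log10 q of 1.53, and lay within an SB Kac peak of 2283 bp at percentile 28.4. SB Kac alone had peaks in intron 1 (603 bp, percentile 15.3) and intron 2 (1252 bp, percentile 39.8), and a 292 bp peak downstream of the gene at percentile 74.6. Control Kac alone had a 304 bp peak in intron 1 at percentile 8.92. The Kac lists shared 37.4% of the bases that either covered. Another peak of each list lay just outside the downstream end of the window, 1.69 kb beyond it in control Kac, over the start of TRAP1, a mitochondrial chaperone gene.

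KAT2A (GCN5) and KAT2B (PCAF) encode the alternative catalytic subunits of the SAGA and ATAC coactivator complexes, which acetylate the tail of histone H3. KAT2A (chr17:42113111-42121367, minus strand) is a short gene. Its control Kac peak reached from 599 bp upstream to 2350 bp downstream of the TSS (fold 3.51, percentile 66.0). The SB Kac peak was longer on both sides, from 1745 bp upstream to 3263 bp downstream (fold 4.32, percentile 82.2). Its upstream end took in the start of HSPB9, a small heat shock protein gene on the opposite strand, at −1437 bp, which control Kac and Kbz did not reach. The Kbz peak was 1279 bp long and lay from 575 bp upstream to 703 bp downstream (fold 5.13, percentile 77.7). The difference in rank between the Kac lists, 16.2 percentile points higher in SB, was the largest positive difference among the 8 genes with both Kac lists over the TSS. Control Kac peaks covered 19.1% of the window, SB Kac peaks 33.2% and the Kbz peak 7.01%. Both Kac lists had a weaker peak downstream of the gene (percentiles 11.5 and 46.4), and SB Kac alone another of 361 bp (percentile 57.6).

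KAT2B (chr3:20040446-20154404, plus strand) had Kac at its start but no Kbz in its window. Control Kac reached from 1511 bp upstream to 1296 bp downstream (fold 3.81, percentile 74.7). SB Kac reached from 2554 bp upstream to 937 bp downstream (fold 3.34, percentile 64.0). The SB minus control difference in rank was −10.7 points, the most negative among the 8 genes. The nearest Kbz peak to the TSS was 92.7 kb upstream, and the nearest to the window lay 26.3 kb beyond its downstream end, over the start of SGO1, a cohesin protector gene (percentile 67.1). Among SB Kac peaks over protein-coding TSSs at percentiles 60 to 70, 70.2% (539 of 768) had Kbz on them. The strongest Kac of the gene was not at its start in SB. A peak in intron 1, 25.6 to 28.2 kb downstream, stood at percentile 85.5 with a fold of 4.59, and it was the highest-ranked SB Kac peak of the 10 genes without Kbz. Of SB Kac peaks at percentiles 80 to 90 and farther than 3 kb from every annotated TSS, 86.2% (1546 of 1794) overlapped Kbz. In control Kac the same place belonged to a peak of 7753 bp, which ran on over exon 2 to 32.9 kb (percentile 71.6). SB Kac also had a peak from 2.97 to 4.27 kb downstream that control Kac lacked (percentile 36.7), and control Kac alone had one of 386 bp at 16.7 kb (percentile 22.8).

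**Figure D2:**
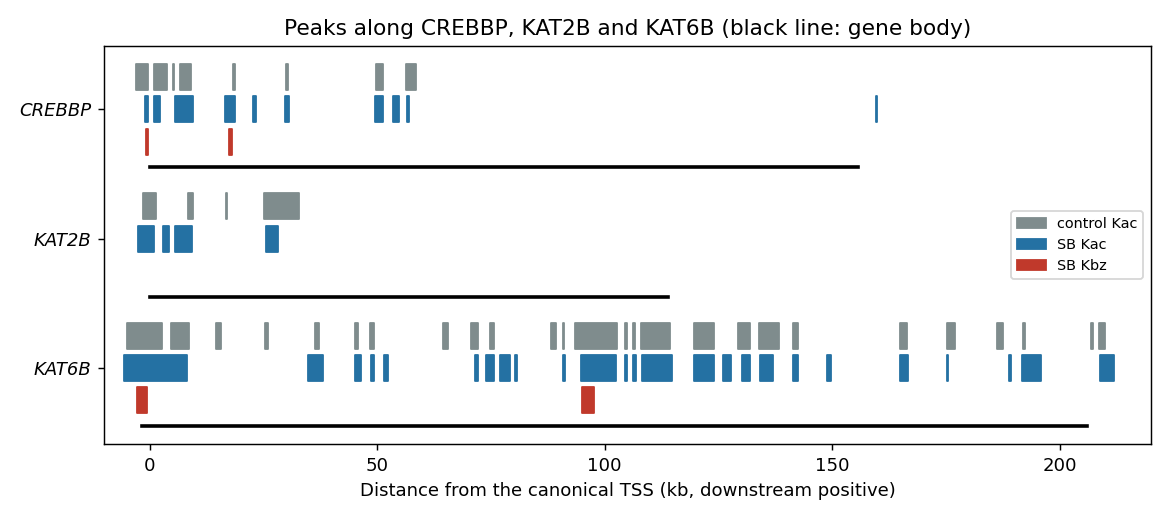
Peaks along CREBBP, KAT2B and KAT6B against distance from the canonical TSS in kb, in control Kac (grey), SB Kac (blue) and SB Kbz (red), with the gene body as a black line. KAT6B carried 26 control Kac and 25 SB Kac peaks over its length and 2 Kbz peaks, and KAT2B carried 4 Kac peaks in each list and no Kbz peak.

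KAT5, KAT6A, KAT6B, KAT7 and KAT8 form the MYST family, which works in complexes with scaffold and reader subunits. KAT5 (TIP60; chr11:65711996-65719604, plus strand) acetylates histones H4 and H2A in transcription and DNA repair. Its control Kac peak reached from 1377 bp upstream to 791 bp downstream of the TSS (fold 4.70, percentile 90.3). SB Kac reached from 1239 bp upstream to 770 bp downstream (fold 6.06, percentile 95.9), and Kbz from 1203 bp upstream to 305 bp downstream (fold 5.79, percentile 86.6). All 3 peaks started and ended at similar places and ranked high. A 2nd group of peaks stood at the other end of this short gene, over the start of RNASEH2C, a ribonuclease H2 subunit gene that is transcribed towards it from 8546 bp downstream of the KAT5 TSS. The control Kac peak there was 6016 bp long (percentile 72.8), the SB Kac peak 4034 bp (percentile 83.5) and the Kbz peak 1738 bp (percentile 75.7). The latter lay wholly outside the gene body of KAT5. Of the KAT5 window, 46.5% was under control Kac peaks, 34.3% under SB Kac peaks and 18.4% under Kbz peaks, the highest shares of the 10 genes in every list. This window was also the shortest, at 17.6 kb, and the shares include the peaks over the start of RNASEH2C.

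KAT6A (MOZ) and KAT6B (MORF) acetylate histone H3 with the scaffold proteins BRPF1, BRD1 or BRPF3. KAT6A lies on chromosome 8, minus strand. In control Kac a peak of 735 bp lay 953 to 219 bp upstream of the TSS. With a fold of 6.63 it stood at percentile 99.4, although it did not cover the TSS. In SB Kac the peak was 2232 bp long, covered the TSS and ended 1321 bp downstream, at a fold of 4.63 and percentile 85.9. The Kbz peak was 656 bp long and lay 930 to 275 bp upstream (fold 4.35, percentile 61.9). The places of the control Kac and Kbz peaks nearly coincided, while the SB Kac peak ran on over the TSS. The deposited fold is an average over the called peak, and the part of the longer call in its lower rank was not tested. In the rest of the gene, which is 123 kb long, KAT6A had 1 weak control Kac peak in intron 2 (650 bp, percentile 2.70). SB Kac had 3 in that intron, of 823 bp at percentile 63.7, of 1289 bp at percentile 43.6 and of 1321 bp at percentile 30.4, and the first overlapped the control peak. The Kac lists shared 17.8% of the bases that either covered, the lowest share of the 10 genes.

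KAT6B (chr10:74824927-75032624, plus strand) is the longest of the 10 genes, at 208 kb, and has 35 annotated starts. It held 26 control Kac and 25 SB Kac peaks, and 0.389% (78) and 0.494% (99) of protein-coding genes held as many or more. These shares were not matched for length, and the window of KAT6B was 218 kb long. Kac covered 25.7% of the window in control and 28.6% in SB-treated cells, and Kbz 2.16%. At the TSS the control Kac peak reached from 4904 bp upstream to 2782 bp downstream (7687 bp, fold 4.27, percentile 84.2), and a 2nd peak of 3966 bp followed. In SB Kac both places belonged to a single peak of 13875 bp, from 5587 bp upstream to 8287 bp downstream (fold 4.10, percentile 79.2). The Kbz peak was 2152 bp long and ended 644 bp before the canonical TSS (fold 5.14, percentile 77.8). It covered the most upstream of the starts, at −1673 bp, and in all 12 of the 35 annotated starts. A lncRNA gene on the opposite strand starts at −4470 bp, under Kac of both lists and not under Kbz.

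Most other peaks of KAT6B stood in intron 3. The longest was a control Kac peak of 9407 bp, which began 93.4 kb downstream of the TSS (fold 4.23, percentile 83.4). SB Kac had a peak of 7723 bp there (fold 3.91, percentile 76.2), and inside it lay a Kbz peak of 2560 bp from 95.1 to 97.6 kb (fold 2.99, percentile 14.9). Farther into the intron both Kac lists had peaks of about the same length at the same place: 6495 bp in control and 6617 bp in SB from 108 kb, and 4504 bp in control and 4471 bp in SB from about 120 kb. Neither carried Kbz. KAT6B peaks found in 1 Kac list only were 6 in control Kac and 6 in SB Kac. The longest were 1453 bp in intron 13 in control (percentile 12.7) and 2146 bp in intron 3 in SB (percentile 24.1).

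KAT7 (HBO1; chr17:49788624-49835026, plus strand) acetylates histones H3 and H4 and takes part in the licensing of replication origins. It had the highest-ranked TSS peaks of the 10 genes in every list. The control Kac peak reached from 1275 bp upstream to 1247 bp downstream (fold 6.73, percentile 99.5). SB Kac reached from 1322 bp upstream to 469 bp downstream (fold 7.05, percentile 98.7), and Kbz from 1184 bp upstream to 430 bp downstream (fold 7.78, percentile 97.6). The Kbz peak covered nearly the same stretch as the SB Kac peak, at 90.1% of its length. On the downstream side both ended before the control Kac peak did. The remaining peaks of KAT7 were weak and in 1 list each, a SB Kac peak of 1119 bp upstream (percentile 15.0) and a control Kac peak of 393 bp downstream of the gene (percentile 3.26).

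KAT8 (MOF; chr16:31114489-31131393, plus strand) acetylates histone H4 as the catalytic subunit of the MSL and NSL complexes. It had the lowest-ranked TSS peaks of the 10 genes in both Kac lists and no Kbz. Control Kac reached from 1059 bp upstream to 682 bp downstream (fold 2.77, percentile 27.8) at a −log10 q of 1.93. SB Kac reached from 934 bp upstream to 922 bp downstream (fold 2.86, percentile 42.9) at a −log10 q of 2.18. Of SB Kac peaks over protein-coding TSSs at percentiles 40 to 50, 24.5% (51 of 208) overlapped Kbz. The nearest Kbz peak missed the window by 499 bp, at percentile 47.1, and lay over the start of the upstream neighbour BCKDK, which encodes the kinase of the branched-chain ketoacid dehydrogenase. Both Kac lists had their highest-ranked peak of the window downstream of KAT8, the control peak at percentile 51.8 and the SB peak at percentile 73.8. Only the SB peak covered the start of PRSS8, a serine protease gene on the opposite strand. Control Kac alone had a peak of 1103 bp upstream (percentile 46.8).

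HAT1 (chr2:171922448-171983686, plus strand) encodes the type B enzyme, which acetylates new histone H4 before it is placed on DNA, with the histone chaperones RBBP7 and RBBP4. The control Kac peak at its TSS reached from 1140 bp upstream to 2279 bp downstream (fold 4.33, percentile 85.0). SB Kac reached from 1239 bp upstream to 2308 bp downstream (fold 5.51, percentile 93.1), and Kbz from 805 bp upstream to 1597 bp downstream (fold 4.66, percentile 69.0). The Kac peaks were nearly the same in extent, and the Kbz peak lay inside both. Intron 4 held a control Kac peak of 322 bp at percentile 71.4 without SB Kac, the highest-ranked control Kac peak of the 10 genes that SB Kac did not overlap. Farther into the intron SB Kac alone had a peak of 1442 bp (percentile 23.5), with another of 862 bp downstream of the gene (percentile 29.2).

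**Figure D3:**
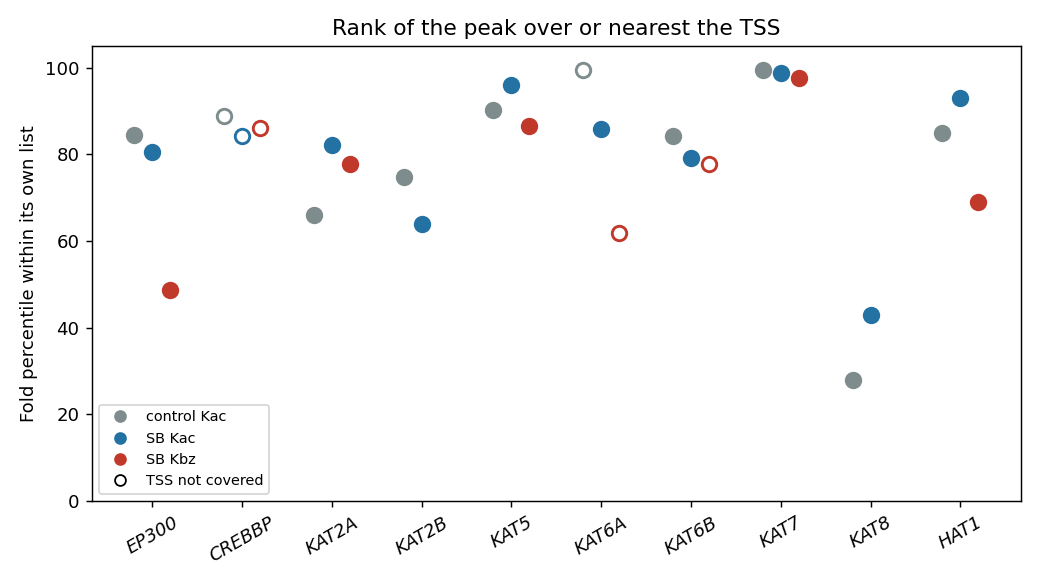
Percentile of the fold within its own list for the peak over or nearest to the canonical TSS of each gene, in control Kac (grey), SB Kac (blue) and SB Kbz (red). Filled points are peaks over the TSS and open points peaks within 3 kb of it; KAT7 stands at 97.6 or above in every list, and KAT8 at 27.8 and 42.9 in the Kac lists.

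The next comparison set the ranks of the Kac peaks at these starts in control and SB-treated cells side by side. The lists differ in length, with 70326 and 63282 peaks of 1 library each, so a difference in rank is not a measured change in Kac at a gene. In the 8 genes with both Kac lists over the TSS, the peak ranked higher in SB in 4 and lower in 4 (65.6% of protein-coding genes with both ranked higher in SB). It was higher by 16.2 percentile points in KAT2A, by 15.1 in KAT8, by 8.05 in HAT1 and by 5.60 in KAT5. In the others the SB minus control difference was −10.7 in KAT2B, −5.00 in KAT6B, −3.86 in EP300 and −0.828 in KAT7. The median difference was 2.38 points, against 2.56 over protein-coding genes, whose middle 50% of genes ran from −1.73 to 8.61. The peak was longer in SB in 6 of the 8 genes (54.1% of protein-coding genes), and shorter in KAT5 and KAT7. The SB minus control difference in length ran from −731 bp in KAT7 to 6188 bp in KAT6B.

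Over the whole windows, 41 of 54 control Kac peaks overlapped an SB Kac peak, or 75.9% (63.1 to 85.4), against 69.7% of control Kac peaks in the windows of protein-coding genes. Of the SB Kac peaks 40 of 56 overlapped a control Kac peak, or 71.4% (58.5 to 81.6), against 71.7%. These intervals cover counting error only, and no test was made. The 13 control Kac peaks without SB Kac lay in 7 of the genes and were 393 bp long at the median, while those with SB Kac measured 1675 bp. The 16 SB Kac peaks without control Kac lay in 7 genes too and measured 1071 bp at the median. None of these peaks covered the canonical TSS of one of the 10 genes. Their median percentiles were 12.7 in control Kac and 26.6 in SB Kac.

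**Figure D4:**
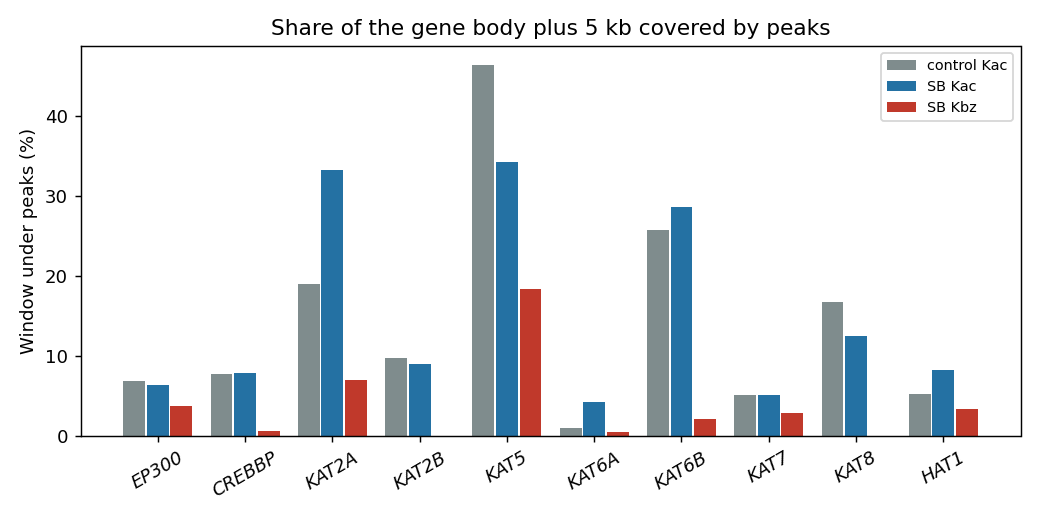
Share of the window (gene body and 5 kb on either side) under peaks, in percent, for each gene in control Kac (grey), SB Kac (blue) and SB Kbz (red), 1 library per bar and no error. KAT5 had the largest share in every list, 46.5%, 34.3% and 18.4%, and KAT6A the smallest in both Kac lists, 1.05% and 4.27%. The share depends on window length, which was 17.6 kb in KAT5 and 133 kb in KAT6A.

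In total control Kac peaks covered 112 kb of the 928 kb of windows (12.1%), SB Kac peaks 123 kb (13.2%) and Kbz peaks 18.6 kb (2.01%). Of these lengths KAT6B alone held 56.0, 62.4 and 4.71 kb, and the totals have no matching share over protein-coding genes. The median gene had 8.77%, 8.63% and 2.51% of its window covered, against 7.24%, 7.14% and 2.32% over protein-coding genes.

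The last comparison asked where Kbz lay relative to Kac in SB-treated cells. Each of the 11 Kbz peaks shared bases with SB Kac, or 100% (74.1 to 100), against 95.5% of Kbz peaks in the windows of protein-coding genes. Of these, 10 also overlapped a control Kac peak, and the peak in intron 1 of CREBBP, with a −log10 q of 1.53, did not. The share of Kbz peaks with control Kac over protein-coding genes was not computed, so this count has no comparison. In the other direction Kbz was found on 11 of 56 SB Kac peaks, or 19.6% (11.3 to 31.8), against 36.4%. KAT6B contributed 23 of the 45 SB Kac peaks without Kbz. Without KAT6B the share was 9 of 31, or 29.0% (16.1 to 46.6). The 36.4% was computed with KAT6B and other long genes included, so these sets are not alike. No test was made of either share. The SB Kac peaks with Kbz had a median length of 3548 bp and a median percentile of 83.5. Those without had 1252 bp and 36.0. Of the 11 Kbz peaks, 8 lay at the start of one of the genes, and the others were those at RNASEH2C, in intron 1 of CREBBP and in intron 3 of KAT6B.

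At the 8 starts with Kbz, the Kbz peak was shorter than the SB Kac peak in 8 of 8. The share was 94.2% over protein-coding genes with all 3 lists over the TSS. CREBBP, KAT6A and KAT6B, with Kbz beside the TSS, did not meet that condition, so the sets are not alike. The Kbz length ran from 15.5% of that of the SB Kac peak in KAT6B to 90.1% in KAT7. Its median was 63.8% over the 8 starts and 64.7% over the protein-coding genes with all 3 lists over the TSS. At least 95.3% of the bases of each Kbz peak were inside the SB Kac peak. Of the 9 genes with SB Kac over the TSS, 5 had Kbz over it too (75.4% of protein-coding genes) and 7 had Kbz in the window (95.5%). The 2 without, KAT2B and KAT8, had the lowest-ranked SB Kac peaks of the 10 starts, at percentiles 64.0 and 42.9. Those with Kbz ranked from 79.2 in KAT6B to 98.7 in KAT7. Over all protein-coding TSSs the share of SB Kac peaks with Kbz likewise went from 24.5% at percentiles 40 to 50 to 91.1% at 70 to 80 and 98.9% at 80 to 90.

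**Figure D5:**
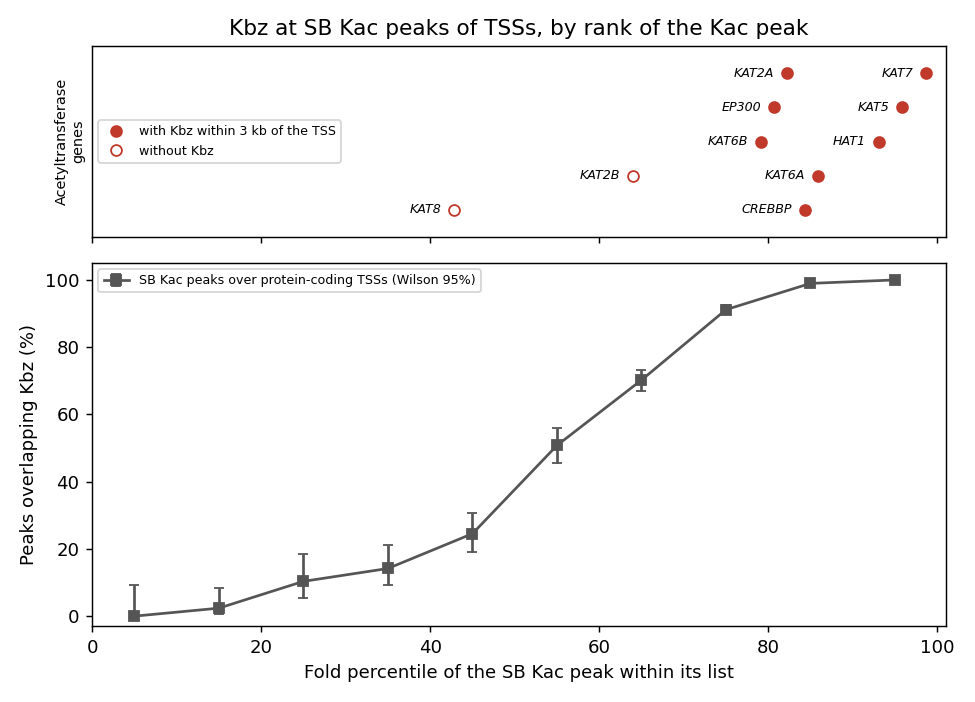
Top, the 10 acetyltransferase genes placed by the fold percentile of the SB Kac peak over or nearest to their TSS (vertical position only separates the names), filled where a Kbz peak lay within 3 kb. Bottom, the share of SB Kac peaks over protein-coding TSSs that overlapped Kbz, in percent, for each range of 10 percentile points, with Wilson 95% intervals; KAT8 and KAT2B fell where that share was 24.5% and 70.2%.

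Among the starts with Kbz, the gap between the ranks of SB Kac and Kbz differed by gene. EP300 stood at percentile 80.6 in SB Kac and 48.8 in Kbz, and HAT1 at 93.1 and 69.0. KAT6A stood at 85.9 and 61.9, and KAT5 at 95.9 and 86.6. KAT2A, KAT6B, KAT7 and CREBBP had Kbz within 5 percentile points of SB Kac. The median over the peaks nearest the TSS was 84.8 in control Kac and 83.3 in SB Kac over 10 genes, and 77.7 in Kbz over 8. Over protein-coding genes with a peak over the TSS these medians were 83.8, 87.2 and 70.8. The latter leave out peaks beside the TSS, which the medians of the acetyltransferase genes include, so the sets are not alike.

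The other genes of the machinery were looked up in lists chosen by complex. Of 13 other acetyltransferases, 11 had their TSS covered in each list, though not always the same 11. Over all protein-coding genes the shares with a covered TSS, against which these and the next counts are read, were 59.1% (control Kac), 60.4% (SB Kac) and 45.8% (Kbz). NCOA1, a nuclear receptor coactivator, had no list over its TSS, and its nearest peaks were 346 bp away in control Kac, 390 bp in SB Kac and 503 bp in Kbz. NCOA2, its paralogue, was covered in control Kac only, and missed by 19 bp in SB Kac and by 100 bp in Kbz. NAA60, an acetyltransferase of the Golgi, was covered in SB Kac and Kbz, while the nearest control Kac peak was 13.5 kb away. RBBP4 and RBBP7, the partners of HAT1, were covered in every list, at percentiles 91.1 and 76.9 in Kbz.

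Of 15 subunits of SAGA and ATAC, the complexes of KAT2A and KAT2B, the TSS was covered by control Kac in 13, by SB Kac in 14 and by Kbz in 12. TADA2B, an adaptor of SAGA, had no list over its TSS, the nearest peak being 293 bp away. TRRAP, a large scaffold shared with the TIP60 complex, was covered in SB Kac only. SUPT20H, another SAGA subunit, missed Kbz by 108 bp. Of 15 subunits of the TIP60 complex of KAT5, 15, 15 and 13 were covered. EP400, its remodelling ATPase, had its nearest Kbz peak 19.3 kb from the TSS. MEAF6, which is shared with the complexes of KAT6A, KAT6B and KAT7, missed Kbz by 8 bp.

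Of 8 scaffold and reader subunits of the complexes of KAT6A, KAT6B and KAT7, control Kac covered the TSS of 5, SB Kac that of 7 and Kbz that of 5. ING5, a PHD finger protein, missed control Kac by 257 bp, and BRPF3 missed Kbz by 272 bp. JADE2 was covered in SB Kac only. JADE3 was covered in no list, with control Kac 515 bp away and the other lists over 8 kb away, and it was the one partner without Kbz in its window. Of 11 subunits of the MSL and NSL complexes of KAT8, 10, 11 and 10 were covered. MSL3 missed control Kac by 437 bp and MSL1 missed Kbz by 473 bp. Summed over the 51 partners, the TSS was covered by control Kac in 45 (59.1% of protein-coding genes), by SB Kac in 49 (60.4%) and by Kbz in 42 (45.8%), and 50 of the 51 had Kbz in the window (72.3%).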

How the data were processed

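Peak lists of 3 ChIP-seq libraries were used (control Kac, SB Kac, SB Kbz; 1 library per group). Per the labels and the study's methods, the authors sequenced single reads of 50 bp, aligned them to hg38 with Bowtie, removed duplicates and called peaks for each library with MACS at an FDR of 0.01. The submitters' processing notes name Bowtie2 2.2.6, SAMtools 0.1.19 and MACS2 2.1.1. The lists are in broad format, in which neighbouring enriched stretches are joined, so a peak's length depends on depth and joining. The deposited fold, a linear ratio over background averaged over the peak, was ranked within its own list only. The deposited −log10 p and −log10 q served as thresholds. The deposited score, made for display, was not used. The highest q in the lists was 0.0487, 0.0494 and 0.0485, above the stated FDR. Depth is unknown, since the files hold no read totals.

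Peaks were matched to GENCODE 44 genes by an overlap of at least 1 bp, and 3 control Kac peaks outside the 24 chromosomes were dropped. Covered length was taken from the union of the peaks of a list. Promoters came from RefSeq, and the 5 printed ones matched hg38. Shares carry Wilson 95% intervals (statsmodels 0.14.6). Python 3.11.15 with numpy 2.4.6, pandas 2.3.3 and matplotlib 3.10.9 was used. The overlap code was checked with simulated queries on the SB Kac list itself. It called 1000 of 1000 placed on peaks and 0 of 1000 placed between them. On the peak lists 9 counts were checked against bedtools 2.31.1 with 0 differing. The 10 genes and the partner lists were chosen with earlier results of these data known. Every one of the 10 genes was named, with the peak nearest its TSS and, of the others, those of highest percentile, those in 1 list only and Kbz peaks away from the TSS. A partner was named where its TSS lacked a peak in at least 1 list, and RBBP4 and RBBP7 were named as the whole of their list, after their values were seen. Another gene of the liver check is not reported here. Neighbours outside the windows (TRAP1, SGO1, BCKDK) were likewise named after their values were seen. Alternatives were stricter thresholds, merged peaks, other windows, peak midpoints and a 50% overlap.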

Additional observations from a re-analysis of the deposited data

How the results depend on the processing

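No paired analysis was possible because there was 1 library per group, and for the same reason no replicate could be left out. For 13 counts and shares, 84 recomputations were made, of which 69 stayed within 1.5 times the count or within the interval of the share. The number of genes with a peak in the window never left that range. Keeping peaks with a −log10 q of at least 5, or the top 15000 peaks per list by −log10 p, left fewer peaks by construction. Under these thresholds the genes with the TSS under control Kac went from 8 to 5 and 5. The control Kac peaks in the windows went from 54 to 9 and 8, and the SB Kac peaks from 56 to 11 and 11. Control Kac peaks with SB Kac went from 75.9% to 100% (9 of 9) and 100% (8 of 8). SB Kac peaks with Kbz went from 19.6% to 72.7% (8 of 11) and 81.8% (9 of 11). The share of SB Kac peaks with control Kac went from 71.4% to 81.8% at a −log10 q of at least 5. Requiring an overlap of 50% of the peak lowered these 3 shares to 63.0% for control Kac with SB Kac, 55.4% for SB Kac with control Kac and 8.93% for SB Kac with Kbz. The matching shares over protein-coding genes were not computed under the stricter thresholds or the 50% overlap. Whether the 10 genes differ from them there is therefore unknown. Counting peaks within 3 kb of the TSS raised the genes with Kbz there from 5 to 8. With −log10 q set to 2 or more, which equals the stated FDR, KAT8 lost its control Kac peak over the TSS. The Kbz peaks in the windows then went from 11 to 10, without the one in intron 1 of CREBBP. At 5 or more, EP300 lost its Kbz peak. A window of the gene body plus 10 kb, chosen after seeing the data, gave 9 genes with Kbz in place of 8. What cannot be resolved here is how far such differences come from depth, which is unknown for every list.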
